A study of Danio rerio with 6 samples.

Results

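Platelet-derived growth factors (Pdgf) are secreted dimers that signal through a pair of related receptor tyrosine kinases, Pdgfra and Pdgfrb. In the mouse, Pdgf-B made by endothelium recruits the mural cells that coat vessels, and these cells carry Pdgfrb. In zebrafish, Pdgfra acts in the movement of heart precursors towards the midline, which takes place during somitogenesis. The zebrafish genes examined were the receptors pdgfra and pdgfrb, the A-chain ligands pdgfaa and pdgfab, and the B-chain ligands pdgfba and pdgfbb. They were chosen by symbol, and all 6 were listed in the authors' deposited table, in 7 of its 19722 rows, since pdgfaa stands under 2 Ensembl identifiers.

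GFP-positive cells were isolated by fluorescence-activated cell sorting from embryos at the 15-somite stage, and 3 biological replicates were sequenced for each of the lines Gt(endocard:egfp) and Tg(fli1a:egfp). Gt(endocard:egfp) is the gene-trap line Gt(SAGFF27C); Tg(4xUAS:egfp), in which a Gal4 cassette within map3k22 drives GFP. The paper detected no map3k22 expression in the endocardial region by in situ hybridisation. It proposes that GFP there is an artefact of the insertion, reports a nearby locus, or both, and does not report map3k22 itself. Embryos of this line came from homozygous fish outcrossed to wild type. Only brightly fluorescent cells were kept, to limit cardiomyocytes with weak GFP. The paper adds that this line likely labels a few myeloid cells later in somitogenesis. Tg(fli1a:egfp) embryos came from heterozygous fish outcrossed to wild type. Their GFP-positive cells are mostly endothelium, including endocardium, and blood. Both lines are given as wild type with no agent applied, each stands for 1 reporter, and libraries were made from 2 ng of RNA by Smart-seq2, which amplifies full-length polyadenylated RNA by PCR.

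The value analysed for each gene was the authors' mean expression. It is taken to be in log2 CPM (read counts scaled to the library total), over the 6 libraries of both lines together. The authors' label says only average expression and names neither unit nor libraries. A value is therefore a level in the pooled libraries of both sorted populations. No statement is made on which line, or which cells within a line, a transcript came from. No value per library was used, so no value below has a replicate error, the depth of the libraries is unknown, and no test was made. CPM counts reads, and a long transcript gives more reads than a short one. No transcript length was used, so values of different genes are placed side by side without reading an order of transcript number from them. Over all 19722 genes the median was 2.58 log2 CPM (5.98 CPM), with quartiles at -0.12 and 4.93 and a range from -5.49 to 15.49. Each CPM value is a mean of logarithms put back on the linear scale, not a mean of CPM. Values under 1 CPM may rest on few reads and are rough.

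Both receptors were listed, pdgfra above and pdgfrb below the median of all genes. For pdgfra (ENSDARG00000070494) the authors' mean was 5.43 log2 CPM, or 43.2 CPM. Of all listed genes, 80.4% had a lower value, and pdgfra lay above the upper quartile. For pdgfrb (ENSDARG00000100897), which marks mural cells in later vessels, the authors' mean was 0.44 log2 CPM, or 1.36 CPM. Of all listed genes, 29.9% had a lower value, so pdgfrb lay between the lower quartile and the median.

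Of the B-chain ligands, pdgfbb was listed above and pdgfba below the median of all genes. For pdgfbb (ENSDARG00000038139) the authors' mean was 5.76 log2 CPM, or 54.2 CPM, and 83.8% of all listed genes had a lower value. This row and that of pdgfra were the 2 of the 7 above the upper quartile. For its paralogue pdgfba (ENSDARG00000086778) the authors' mean was -0.55 log2 CPM, or 0.683 CPM, with 21.3% of all listed genes below it. It was the member row that did not reach 1 CPM, and it lay under the lower quartile of the table.

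The A-chain ligands lay between the quartiles of the table. For pdgfab (ENSDARG00000098578) the authors' mean was 4.37 log2 CPM, or 20.7 CPM, and 69.0% of all listed genes had a lower value. pdgfaa was listed at 3.00 log2 CPM (8.02 CPM) under ENSDARG00000110069, with 54.4% of all listed genes below it. Under ENSDARG00000109371 it was listed at 1.64 log2 CPM (3.12 CPM), with 40.9% below it. The reference gene list of assembly GRCz12tu holds 1 gene of this symbol, so reads of pdgfaa may have been split between the identifiers and each value is uncertain. Added on the linear scale, the rows came to 11.1 CPM, or 3.48 log2 CPM, with 59.4% of all listed genes below. This sum is approximate, because the authors' values are means of logarithms.

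**Figure D1:**
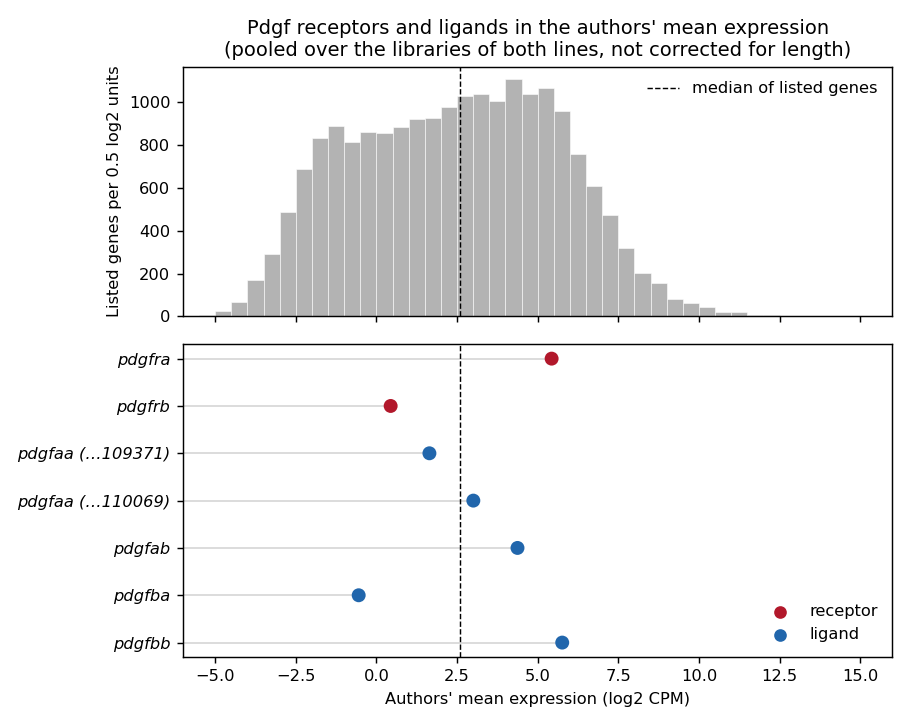
The upper panel is a histogram of the authors' mean expression (log2 CPM, pooled over both lines) of all 19722 listed genes, and the lower panel gives the 7 rows of the Pdgf receptors (red) and ligands (blue) on the same axis, with the median of all genes as a dashed line. pdgfra at 5.43, pdgfbb at 5.76, pdgfab at 4.37 and 1 row of pdgfaa at 3.00 lie to the right of the median of 2.58, and pdgfrb, pdgfba and the other row of pdgfaa to its left; values are not corrected for length.

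The remaining Pdgf genes and the closest relatives of the receptors were listed mostly at low values. pdgfd, a ligand of Pdgfrb in mammals, had an authors' mean of 0.95 log2 CPM (1.93 CPM). pdgfc, a ligand of Pdgfra in mammals, had one of -0.53 log2 CPM (0.693 CPM). pdgfrl, which encodes a protein that resembles the receptors, had one of -3.87 log2 CPM (0.0682 CPM), the lowest of the list. With the Kit and Csf1 receptors and their ligands, 11 of the 13 genes of this list were found. The receptor genes csf1ra and flt3 were not found under those symbols. At 1 CPM or more were 3 of the 11, beside 73.9% of all listed genes. Of the receptor genes found, kitb was at 0.303 CPM and csf1rb at 0.566 CPM. The median of the list was -0.82 against 2.58 over all listed genes. The highest was kita, a receptor of Kit ligand, at 4.31 log2 CPM (19.9 CPM).

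The Vegf family, whose ligands are related to those of the Pdgf family and whose receptors drive vessel growth, was listed with a median above that of all genes. Of 16 genes 12 were found, 10 of them at 1 CPM or more (73.9% over all listed genes), with a median of 5.31 log2 CPM. The highest were the receptors kdrl at 239 CPM and flt4 at 102 CPM and the co-receptor nrp1b at 77.4 CPM. The lowest were the ligands pgfb at 0.158 CPM, vegfab at 0.905 CPM and vegfc at 2.98 CPM.

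Genes that cut or bind Pdgf ligands were listed over a wide range. The A- and B-chain precursors are cut by furin-like proteases, and Sparc binds the B chain. Of the 16 genes of this list 13 were found, 8 of them at 1 CPM or more (73.9% over all listed genes). The median of the list was 1.73 log2 CPM. The highest were sparc at 58.3 CPM, the furin-like protease gene pcsk7 at 28.8 CPM and lrp1ab, a gene of a large endocytic receptor, at 22.5 CPM. The lowest were pcsk5a at 0.154 CPM, a2ml at 0.164 CPM and plat at 0.292 CPM; plat encodes a protease that activates Pdgf-C in mammals.

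An activated Pdgf receptor binds adaptors and enzymes at its phosphorylated tyrosines, which pass the signal on to the phosphoinositide 3-kinase and Erk pathways. Of 55 genes of this signal relay 49 were found, with a list median of 4.62 log2 CPM. At 1 CPM or more were 45 of them (73.9% over all listed genes), and 36 lay above the median of all listed genes. The highest were the adaptor gene crk at 245 CPM, the phosphatase gene ptenb at 170 CPM and the adaptor gene shc1 at 143 CPM. The lowest were stat1b at 0.104 CPM, shc2 at 0.319 CPM and akt3a at 0.575 CPM. Among the proteins that bind the receptors directly, plcg1 was listed at 108 CPM and the regulatory subunit gene pik3r1 at 114 CPM. The phosphatase gene ptpn11a was at 85.9 CPM. These 3 were chosen for their role after their values were seen, and do not stand for all such proteins. Chosen in the same way, the kinase genes src, fynb and fyna were at 4.04, 3.24 and 2.28 CPM, under the median of all genes. All of these proteins also serve other receptors.

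**Figure D2:**
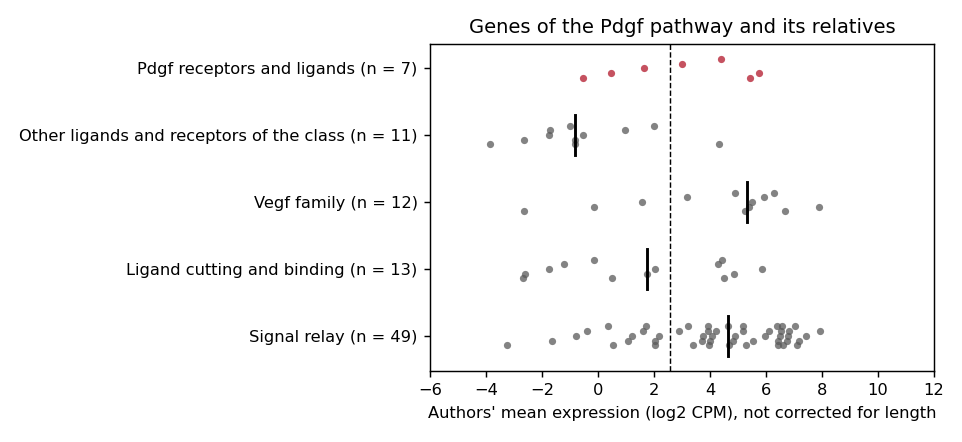
Each point is 1 gene at its authors' mean expression (log2 CPM, pooled over both lines, not corrected for length), the top line holds the 7 Pdgf rows (red), a thick bar marks the median of each other list and the dashed line the median of all listed genes. The medians are -0.82 for other ligands and receptors of the class, 5.31 for the Vegf family, 1.73 for ligand cutting and binding and 4.62 for signal relay.

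Markers of the labelled cells and of other cells were listed in the same pooled means. Of 18 pan-endothelial genes 17 were found, all at 1 CPM or more (73.9% over all listed genes), with a median of 7.54 log2 CPM. Of these, kdr, kdrl and flt4 also stand in the Vegf list. Every gene found was at 1 CPM or more also in the endocardial, red blood, myeloid, myocardial, neural crest and pharyngeal endoderm lists. For sclerotome and paraxial mesoderm this held for 6 of 7 genes, and for mural and smooth muscle for 5 of 9. The 8 endocardial genes had a median of 4.58. Red blood cell genes had a median of 6.41 (12 genes) and myeloid genes one of 4.99 (6 of 8 found). Lower medians were those of myocardial genes at 3.13 (8 of 10 found), pharyngeal endoderm at 3.06 (7 of 8), neural crest at 2.92 (9 of 11) and sclerotome and paraxial mesoderm at 1.92 (7 of 10). Genes of mural cells and smooth muscle had a median of 0.46 log2 CPM, with 9 of 12 found. The 5 of them at 1 CPM or more had a median of 3.41, so the place of this list among the others depends on that minimum. All list medians cover only the genes found. Whether genes not found were left out for low counts is unknown. If they were, the medians of lists with such genes can be too high.

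Both receptors are known from cells other than endothelium. pdgfra is also expressed by neural crest, whose 9 genes found ran from 1.20 CPM for crestin to 34.0 CPM for snai2. Of these 9, 6 lay above the median of all genes. Between the ends were tfap2a at 32.8, twist1a at 29.3, sox10 at 18.6, snai1b at 7.58, foxd3 at 7.08, mitfa at 3.12 and twist1b at 2.20 CPM. dlx2a and ltk were not found under those symbols. In the sclerotome and paraxial mesoderm list, the 7 genes found ran from 0.273 CPM for nkx3.2 to 134 CPM for col2a1a. Of these 7, 1 lay above the median of all genes. This range was added after the values were seen. Pdgfra also acts in heart precursors, and the 8 myocardial genes found ran from 1.23 CPM for nkx2.5 to 24.3 CPM for tbx20. Of these 8, 4 lay above the median of all genes. The others were ttn.2 at 21.5, tnnt2a at 16.1, hand2 at 13.0, gata4 at 5.87, cmlc1 at 2.89 and myl7 at 2.77 CPM. vmhc and myh6 were not found under those symbols. These values were also added after they were seen. pdgfrb is a marker of mural cells in later vessels, and the 9 genes found of the mural list ran from 0.102 CPM for abcc9 to 75.4 CPM for foxc1a. In that list notch3, notch2 and foxc1b were also above the median of all genes, at 31.8, 10.6 and 6.76 CPM. The contractile gene acta2 was at 1.37 CPM, rgs5a, tbx18 and rgs5b were under 1 CPM, and tagln, cspg4 and kcnj8 were not found under those symbols. All neural crest, myocardial and mural genes found are named here, which was decided after their values were seen. Whether the genes of these lists are restricted to the cells they are named for at this stage was not tested. The part of such cells in the Pdgf values was not tested. In bulk libraries fewer cells that express a gene cannot be told apart from less RNA of it in each cell.

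**Figure D3:**
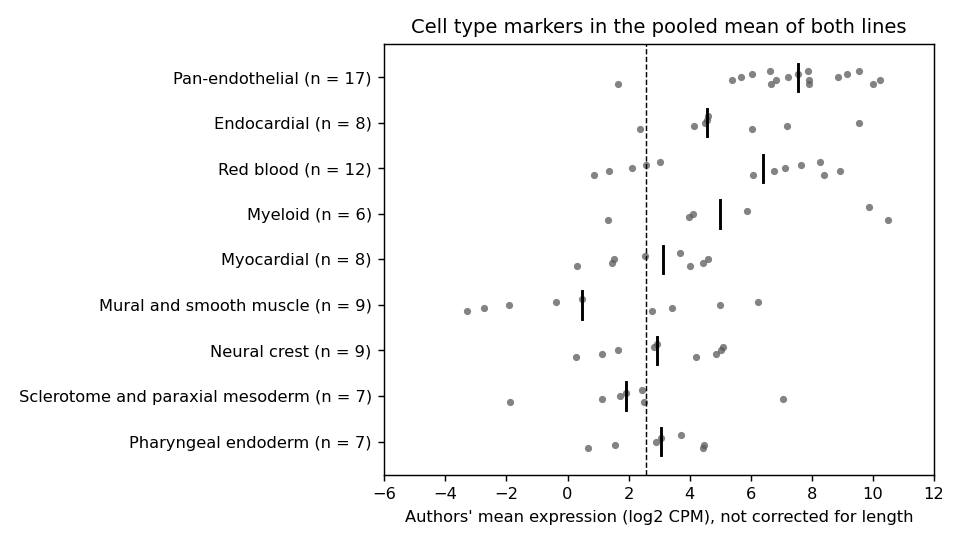
Each point is 1 marker gene at its authors' mean expression (log2 CPM, pooled over both lines, not corrected for length), with a thick bar at the median of each list and a dashed line at the median of all listed genes. Pan-endothelial genes have a median of 7.54, and mural and smooth muscle genes spread from -3.30 to 6.24 around a median of 0.46.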

How the data were processed

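Poly(A) RNA of sorted cells was sequenced from 3 libraries of each line. Mapping to GRCz11 and counting by gene were both done by the authors in Rsubread, followed by limma; versions, filters, normalisation and design formula are not given in the sources used here. The authors deposited 1 table, of which the average expression per gene was used, read as log2 CPM across all 6 libraries. Put back on the linear scale, these values sum to 956297 CPM. The other 7 columns hold the authors' own comparison of the lines (log2 fold changes with confidence limits, test statistics, p-values and log-odds) and were not used, so no comparison between the lines was made. No column held values of single libraries, so depth and precision are unknown.

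Members were found by symbol. For the 13 gene lists, rows without a symbol were named through a gene name list, a choice made after seeing the data; 165 of 193 genes were found, 15 of them in this way, and a gene not found is not analysed here. The percentile of a gene is the percentage of listed genes with a lower value. The percentile step was tested on simulated data. Levels per length were planned and not made, because no transcript or coding length was given. The genes named are the members and up to 3 genes at each end of a pathway list, unless the text says otherwise. Members and lists were chosen with earlier results of these data known. Sequences are not shown. Calculations used pandas 2.3.3, numpy 2.4.6 and scipy 1.17.1 under Python 3.11.15, and matplotlib 3.10.9 for plots.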

Additional observations from a re-analysis of the deposited data

How the results depend on the processing

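The percentile of each gene depended on the genes it was set against. Among the 14092 genes with a symbol, 75.8% lay below pdgfra, 22.8% below pdgfrb, 61.9% below pdgfab, 16.2% below pdgfba, 79.9% below pdgfbb, and 45.5% and 32.4% below the rows of pdgfaa. Among the 14582 genes at 1 CPM or more, 73.5% lay below pdgfra, 5.14% below pdgfrb, 58.1% below pdgfab, 78.1% below pdgfbb, and 38.4% and 20.1% below the rows of pdgfaa, while pdgfba fell under this minimum. Percentiles were lower in both. For the genes at 1 CPM or more this was fixed in advance, as only genes with lower values are removed. pdgfaa stood at 3.00 or 1.64 log2 CPM by 1 identifier alone, against 3.48 for the sum. With only genes at 1 CPM or more, the median of the other ligands and receptors of the class was 2.00 in place of -0.82, as 8 of the 11 genes are removed. That of ligand cutting and binding was 4.37 in place of 1.73, and that of mural and smooth muscle genes 3.41 in place of 0.46, above the 3.13 of myocardial genes. Apart from the first, the 12 list medians stayed within a binomial interval set nominally at 95%, which is wide for lists of this size. Lists with no gene under 1 CPM could not move. All 13 stayed in it when the mean replaced the median, and with only deposited symbols, an alternative chosen after seeing the data. With the latter, lists with no name-list gene could not move. As computed, this interval covers less than 95% for such lists. The first list moved out by losing its genes under 1 CPM, which is not read as a result about them.

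No paired analysis was possible because no values of single libraries were used. For the same reason no library was left out and no other normalisation or count test was run, and alternatives that need a transcript length were not run.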
